A study of Mus musculus with 8 samples.

Results

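The amino acid transporters of the corpus callosum were examined as a set of 33 carrier genes of the solute carrier (SLC) families. They were taken from a list of gene symbols drawn up with earlier results of these data known, and each was represented by the transcript cluster that carried its symbol alone. Where a gene had more than 1 such cluster, the one with the highest mean over all arrays was taken. All 33 members were found, 31 with a single cluster and 2, Slc38a1 and Slc38a9, with 2 clusters, among 19938 genes with a single-symbol cluster. RNA came from the hand-dissected corpus callosum, the white matter tract between the hemispheres, of male wild-type C57BL/6 mice aged 8 weeks, perfused with saline buffer before dissection. The control group was 4 biological replicates on normal diet, and the cuprizone group was 4 on a diet with 0.25% cuprizone for 1 week. Cuprizone is a copper chelator that injures oligodendrocytes. Total RNA was hybridised to Affymetrix Mouse Gene 1.0 ST arrays, 1 array per replicate, and all levels below are log2 values. The tissue was taken in bulk, so fewer cells of a type and less RNA per cell cannot be told apart.

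Amino acids enter and leave cells through carriers that differ in what they couple to. The SLC7 light chains are exchangers that reach the cell surface bound to a heavy chain, for most of them the glycoprotein 4F2hc (CD98) encoded by Slc3a2. With that heavy chain Slc7a11 (xCT) exchanges cystine for glutamate, which supplies cysteine for glutathione, and Slc7a5 (LAT1) exchanges large neutral amino acids. Sodium-coupled carriers of the SLC1, SLC38 and SLC6 families take up glutamate, glutamine, glycine and taurine, and other carriers sit in the lysosome, where amino acid supply is read by the kinase complex mTORC1. Shortage of amino acids activates the kinase GCN2 and the transcription factor ATF4, which is known to induce several carrier genes.

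The median level over all 23410 clusters with a gene symbol lay between 7.44 and 7.49 on the 8 arrays. On the first principal component, control replicate 2 (-13.2) and cuprizone replicate 2 (8.73) each stood nearer to the other group than the remaining arrays of their own group. Myelin markers of the dissected tissue were present, with Mbp, which encodes a myelin protein, at 12.2 in the control mean, and so was the neuronal marker Snap25 (12.8). Of 13 measured markers of mature oligodendrocytes, all 13 were called lower with cuprizone, 9 of 11 microglial markers were called higher, and none of 11 neuronal or 9 endothelial markers was called. Ttr, a marker of choroid plexus, varied within the controls, from 9.56 on replicate 3 to 12.58 on replicate 4. The same marker was high on cuprizone replicates 2 and 4 and low on 1 and 3. Of the other lists, 1 of 8 markers of oligodendrocyte progenitors and 1 of 6 of ependyma fell, and none was called for mural cells, choroid plexus, meningeal fibroblasts, blood leukocytes or red blood cells. Over all clusters tested, 8.22% were called in either direction. The labels name no batch and do not say whether animals were pooled.

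A small set of carrier genes rose with cuprizone, and most were not called. Of the 33 members, 8 rose, 1 fell and 24 were not called at an adjusted p under 0.05 in limma. Over all clusters tested, 4.71% were called higher and 3.52% lower, against 24.2% and 3.03% of the members. The members were a bright set, with 24 of the 33 above the median level of the clusters tested. In a fit of only the clusters above that level, 16.3% were called in either direction. Of the 24 members in that fit, 5 were called higher and 3 lower. The largest rises were those of Slc7a11, Slc7a5 and Slc3a2, and the fall was that of Slc7a10. The median log2 fold change of the members was 0.026, beside -0.007 over all clusters. The control and cuprizone arrays did not overlap for 13 members (39.4%), beside 15.3% of all clusters. The count of risen members was 5 without cuprizone replicate 3 and between 6 and 8 without any other single array. The count of fallen members was 2 without cuprizone replicate 2 or 3, where Slc6a9 joined it. Without both arrays numbered 2, a choice made after seeing the data, 5 rose and 2 fell.

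**Figure D1:**
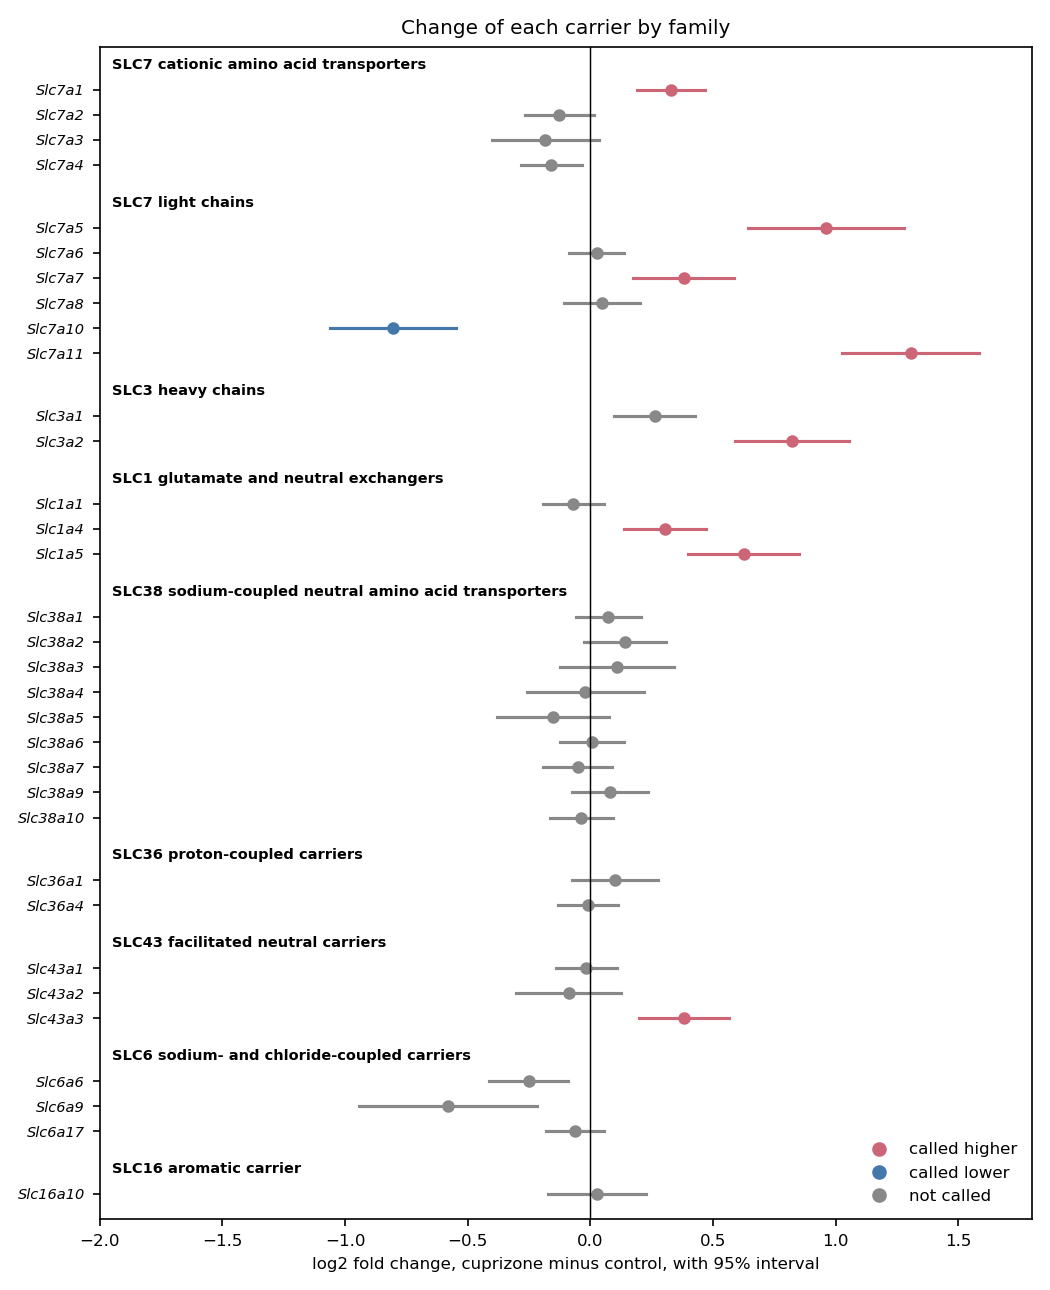
The log2 fold change of each of the 33 carriers (cuprizone minus control, horizontal axis), grouped by family, with points at the limma estimate and bars for its 95% interval. Slc7a11, Slc7a5 and Slc3a2 lie farthest to the right, Slc7a10 lies to the left, and all 9 SLC38 genes have intervals that cross 0.

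The cystine exchanger gene Slc7a11 (transcript cluster 10498024) showed the largest change of the set. Its level was 9.02, 9.59, 9.05 and 8.91 on control replicates 1 to 4, and 10.35, 10.49, 10.53 and 10.42 on cuprizone replicates 1 to 4. The groups did not overlap, and control replicate 2 was the highest control. The mean rose from 9.14 ± 0.31 to 10.45 ± 0.08 (SD, n = 4 each), 2.47-fold. On the log2 scale this was a rise of 1.30 ± 0.13 (SE), with an adjusted p of 9.86e-05 in limma.

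The 250 bases before a RefSeq start of Slc7a11 (GRCm38.p6, chr3:50443614-50443863, minus strand) are shown because they hold 2 matches of TGATGNAA, the core letters of the C/EBP-ATF response element at which ATF4 dimers bind. The windows of Slc3a2 (chr19:8713898-8714147, minus strand) and Slc7a10 (chr7:35186135-35186384, plus strand), the partner that rose and the light chain that fell, are shown for comparison. The start next to each window lies inside the RefSeq span of its gene (chr3:50364936-50499087, chr19:8706882-8723369 and chr7:35186095-35201116). Any start farther upstream was not examined. Capitals mark matches of TGATGNAA on either strand, and of TGACNNNGC, the core of the antioxidant response element, which none of these 3 windows holds. N stands for any base.
Slc7a11: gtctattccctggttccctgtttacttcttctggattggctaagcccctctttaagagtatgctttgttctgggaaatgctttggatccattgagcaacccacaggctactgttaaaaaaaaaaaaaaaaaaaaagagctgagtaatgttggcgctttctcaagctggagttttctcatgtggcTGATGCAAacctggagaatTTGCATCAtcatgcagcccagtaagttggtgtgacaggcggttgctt
Slc3a2: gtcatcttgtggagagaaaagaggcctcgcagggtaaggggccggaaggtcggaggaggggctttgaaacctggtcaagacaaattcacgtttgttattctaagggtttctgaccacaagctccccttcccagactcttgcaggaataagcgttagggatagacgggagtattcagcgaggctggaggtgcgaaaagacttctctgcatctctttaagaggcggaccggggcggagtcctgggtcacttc
Slc7a10: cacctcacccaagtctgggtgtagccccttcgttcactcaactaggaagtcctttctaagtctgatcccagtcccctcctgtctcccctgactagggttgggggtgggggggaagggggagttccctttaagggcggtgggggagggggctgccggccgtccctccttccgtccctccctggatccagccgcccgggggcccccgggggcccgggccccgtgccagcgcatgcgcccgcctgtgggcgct

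In Slc7a11 the matches were TGATGCAA at -66 to -59 and, on the other strand, TTGCATCA at -47 to -40, counted back from -1 at the base before the start. Windows with matches on both strands numbered 6 of 32851 in the promoter table (0.018%), a feature looked at after the Slc7a11 window had been read. Of 24 members with a window, 2 held TGATGNAA in the upstream bases, Slc7a11 and Slc7a7, beside 3.91% of all genes in the table. The core TGACNNNGC was found in 5 of the 24, Slc38a2, Slc43a1, Slc6a9, Slc7a1 and Slc7a6, of which only Slc7a1 was called, beside 11.5% of all genes. No window was listed for Slc7a5, Slc1a5, Slc43a3, Slc38a1, Slc38a3, Slc6a6, Slc7a2, Slc7a3 and Slc7a4. These are matches of letters, and binding was not measured.

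Slc3a2 (cluster 10465772), the heavy chain of these exchangers, stood at 11.28, 11.84, 11.36 and 11.40 on the controls and at 12.26, 12.25, 12.36 and 12.29 on the cuprizone arrays. It rose 1.77-fold, by 0.82 ± 0.11 (SE, limma adjusted p = 0.00062), and the groups did not overlap. Slc7a5 (cluster 10582275), the carrier of leucine, phenylalanine and other large neutral amino acids, stood at 10.15, 10.75, 10.05 and 10.04 on the controls and at 11.04, 11.36, 11.25 and 11.18 on the cuprizone arrays. It rose 1.94-fold, by 0.96 ± 0.14 (SE, limma adjusted p = 0.00175), again without overlap. Slc7a5 is also abundant in brain endothelium, and the 9 endothelial markers measured had a median log2 fold change of -0.14 with none called. Their mean relative to the controls ran from -0.02 to 0.03 on the controls and from -0.17 to -0.05 on the cuprizone arrays. The part of endothelial cells in the level of Slc7a5 was not tested.

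Control replicate 2 carried raised levels of all 3 genes. It stood above the mean of the other controls by 0.68 for Slc7a5, by 0.60 for Slc7a11 and by 0.49 for Slc3a2, which is 59.8%, 41.1% and 51.8% of the distance from those controls to the cuprizone mean. On this array the stress transcription factor Atf3 was also high, at 8.68 against 6.96 to 7.21 on the other controls, and so was the haem oxygenase Hmox1, at 7.76 against 6.58 to 7.13. The mean of the amino acid response list, relative to the controls, was 0.10 on this array and -0.05 to -0.01 on the other controls. The part of these in the carrier levels was not tested. The choroid plexus marker Ttr was high on control replicates 2 and 4 (12.32 and 12.58). Control replicate 4 had the lowest Slc7a5 and Slc7a11 levels of all arrays, and its Slc3a2 level was 11.40. The part of choroid plexus tissue in the carrier levels was not tested. Without control replicate 2 the log2 fold changes were 1.45 for Slc7a11, 1.13 for Slc7a5 and 0.95 for Slc3a2.

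**Figure D2:**
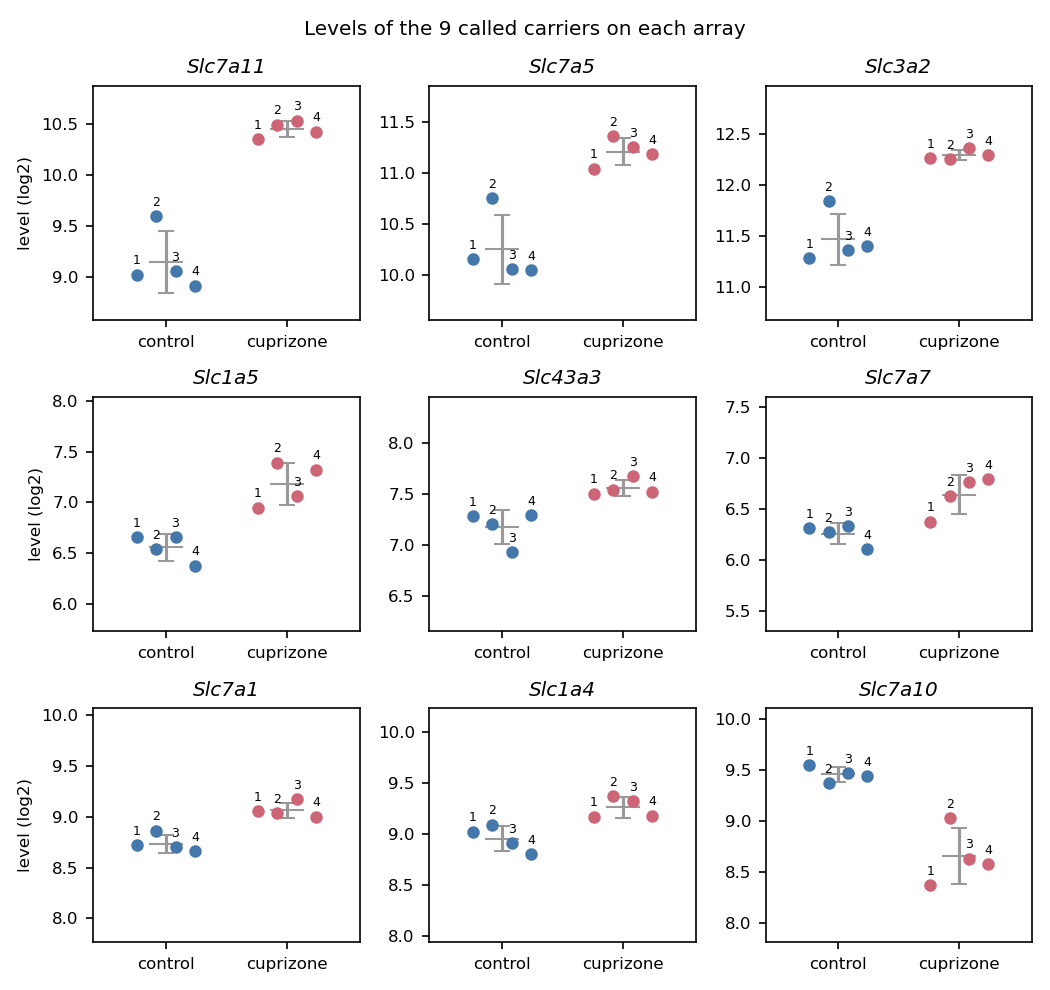
Log2 levels of the 9 called carriers on each array (vertical axis, the same span in every panel), with points numbered by replicate and bars for the mean ± SD of 4 arrays. Control replicate 2 lies between the other controls and the cuprizone arrays for Slc7a11, Slc7a5 and Slc3a2, and the groups do not overlap in any panel.

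Slc7a6 and Slc7a8, light chains of the same heavy chain, were not called. Slc7a6 (y+LAT2), which exchanges cationic for neutral amino acids, was at 8.90 ± 0.05 in controls and 8.92 ± 0.03 with cuprizone (SD, n = 4 each). Slc7a8 (LAT2), a neutral amino acid exchanger, was at 10.02 ± 0.12 and 10.07 ± 0.07. The 95% intervals of their log2 fold changes, from -0.09 to 0.14 and from -0.11 to 0.20, held neither the change of Slc3a2 nor that of Slc7a5.

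Slc7a7 (y+LAT1), the macrophage form of this exchanger, was dim, at 6.31, 6.27, 6.33 and 6.10 on the controls and 6.37, 6.62, 6.76 and 6.79 on the cuprizone arrays. It rose 1.30-fold (0.38 ± 0.09 SE, limma adjusted p = 0.0286), with a gap of 0.04 between the highest control and cuprizone replicate 1. The call ended when any of control replicates 1, 2 and 4 or cuprizone replicates 2, 3 and 4 was left out, with adjusted p from 0.0512 to 0.0879, and the change then lay between 0.33 and 0.40. Of the microglial markers, 9 of 11 rose, with a median of 0.61. Their mean relative to the controls ran from -0.07 to 0.07 on the controls and from 0.52 to 0.87 on the cuprizone arrays, and its part in the level of Slc7a7 was not tested.

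Slc7a10 (Asc-1, cluster 10552143) exchanges serine, glycine and other small neutral amino acids and is known from astrocytes and neurons. It was the member that fell. Its level was 9.55, 9.37, 9.47 and 9.44 on the controls and 8.37, 9.03, 8.63 and 8.58 on the cuprizone arrays. The fall was 1.75-fold (-0.80 ± 0.12 SE, limma adjusted p = 0.00133), without overlap, largest on cuprizone replicate 1 and smallest on replicate 2. Astrocyte markers moved both ways, 4 of 12 higher and 3 lower, with list means from -0.03 to 0.06 on the controls and -0.14 to 0.11 on the cuprizone arrays. None of the 11 neuronal markers was called. The part of these cells in the fall was not tested.

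Whether the light chains and the heavy chain changed by different amounts was tested on the difference of their log2 levels within each array, with exact permutation of the group labels (70 ways, two-sided). There were 11 pairs of members in all. The smallest p this design allows is 0.0286, and 5 pairs reached it, with an adjusted p of 0.0629, so none of the 11 passed 0.05 after adjustment. The change of Slc7a11 minus that of Slc3a2 was 0.48 (95% interval 0.32 to 0.64), and the groups did not overlap. Against Slc3a2 the differences were -0.80 for Slc7a6 (-1.12 to -0.47), -0.78 for Slc7a8 (-1.07 to -0.48) and -1.63 for Slc7a10 (-2.15 to -1.10), also without overlap. For Slc7a7 it was -0.44, on overlapping groups. Slc3a2 was brighter than its partners, at a mean over all arrays of 11.88 beside 9.79 for Slc7a11 and 6.44 for Slc7a7. How far the size of a change depends on level was not tested. Slc7a5 did not differ beyond the spread between arrays from Slc3a2, at 0.14 (-0.10 to 0.37, exact p = 0.229). In a moderated limma fit of the 11 pairs, the adjusted p was 0.000365 for Slc7a11 against Slc3a2 and 0.333 for Slc7a5 against Slc3a2. That fit drew its variance prior from these 11 chosen pairs alone, several of which share Slc3a2. Its small p-values are therefore no check on the exact test.

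**Figure D3:**
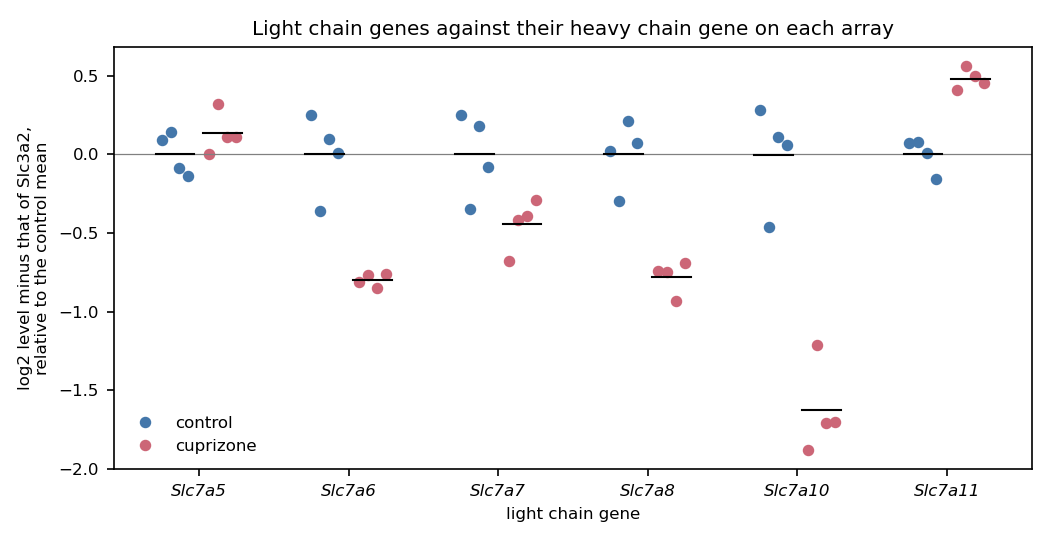
For each light chain gene, its log2 level minus that of Slc3a2 on the same array, set relative to the mean of the 4 controls, with lines at the group means. Slc7a11 lies above 0 and Slc7a6, Slc7a8 and Slc7a10 below their controls on all 4 cuprizone arrays, while Slc7a5 overlaps its controls.

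The other heavy chain gene, Slc3a1 (rBAT), known from kidney and intestine, was dim. It stood at 6.42, 6.58, 6.37 and 6.61 on the controls and 6.67, 6.76, 6.69 and 6.90 on the cuprizone arrays. The groups did not overlap, and its change of 0.26 ± 0.07 (SE) missed the threshold (limma adjusted p = 0.0576). Its limma adjusted p was 0.0418 when the dimmest 20% of clusters were not tested. It was called in 2 of the 20 alternatives that tested it. Leaving out single arrays gave limma adjusted p from 0.0540 to 0.144.

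Among the cationic amino acid transporters, which take up arginine, lysine and ornithine, Slc7a1 (CAT1) was the one called. Its level was 8.72, 8.86, 8.70 and 8.66 on the controls and 9.05, 9.03, 9.17 and 9.0 on the cuprizone arrays, 1.26-fold higher (0.33 ± 0.06 SE, limma adjusted p = 0.00744). Slc7a2 (CAT2), the inducible form of macrophages, was at 8.29 ± 0.04 and 8.16 ± 0.11, and Slc7a3 (CAT3) at 7.54 ± 0.20 and 7.36 ± 0.13 (SD, n = 4 each). Neither was called. Slc7a4, a related protein without a settled substrate, had a log2 fold change of -0.16 ± 0.06 (SE), with groups that did not overlap and a limma adjusted p of 0.123. In the paired difference, the change of Slc7a2 minus that of Slc7a1 was -0.46 (95% interval -0.68 to -0.23, exact p = 0.0286, the smallest possible).

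In the SLC1 family the neutral amino acid exchangers rose and the glutamate carrier was not called. Slc1a5 (ASCT2), which exchanges glutamine and other neutral amino acids, stood at 6.66, 6.54, 6.66 and 6.38 on the controls and 6.95, 7.39, 7.06 and 7.32 on the cuprizone arrays. It rose 1.54-fold (0.62 ± 0.10 SE, limma adjusted p = 0.00324), without overlap. Slc1a5 was dim, with a mean over all arrays at percentile 40.2 of the clusters tested. Slc1a4 (ASCT1), which carries serine and alanine, stood at 9.02, 9.09, 8.91 and 8.80, and with cuprizone at 9.17, 9.37, 9.32 and 9.18.

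The rise of Slc1a4 was 1.24-fold (0.31 ± 0.08 SE, limma adjusted p = 0.0307). It lost its call without control replicate 3 or 4 or cuprizone replicate 2 or 3, with adjusted p from 0.0762 to 0.0886 and changes from 0.25 to 0.29. Slc1a1 (EAAC1), which takes up glutamate and cysteine in neurons, was at 10.30 ± 0.07 and 10.23 ± 0.04. The change of Slc1a5 minus that of Slc1a4 was 0.32 (95% interval 0.04 to 0.60), with overlapping groups and an adjusted p of 0.0898 over the 11 pairs in the exact test.

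The 9 SLC38 genes encode sodium-coupled carriers of glutamine and other neutral amino acids and their lysosomal relatives. None of the 9 was called in limma, beside 8.22% of all clusters tested. An unadjusted limma p under 0.05 was reached by 0 of the 9, beside 4867 of all 23410 clusters. With only 9 genes, such counts cannot be told apart from those shares. Slc38a2 (SNAT2), which is known to be induced when amino acids are short, stood at 10.80, 10.97, 10.90 and 10.87 on the controls and at 10.96, 11.16, 11.13 and 10.85 on the cuprizone arrays. These overlapped, and the change of 0.14 ± 0.08 (SE) had a limma adjusted p of 0.336 and a 95% interval from -0.03 to 0.31. The interval does not reach the change of Slc7a11, Slc7a5, Slc3a2 or Slc1a5.

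Slc38a1 (SNAT1), a glutamine carrier of neurons, had a log2 fold change of 0.07 ± 0.06, and Slc38a3 (SNAT3), the glutamine carrier of astrocytes, a value of 0.11 ± 0.11 (SE). Slc38a9, the lysosomal arginine sensor of mTORC1, was at 0.08 ± 0.07, and Slc38a7, a lysosomal glutamine carrier, at -0.05 ± 0.06. Slc38a4 (-0.02), Slc38a5 (-0.15), Slc38a6 (0.01) and Slc38a10 (-0.04) completed the family. The second clusters of Slc38a1 and Slc38a9 were not called either, at 0.12 and 0.06. Over the 9 genes the 95% intervals ran from -0.38 to 0.34, so that changes above 1.30-fold lay outside all of them.

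The SLC36 carriers Slc36a1 (PAT1), which moves small amino acids out of the lysosome, and Slc36a4 (PAT4), which takes proline and tryptophan, were not called. Their log2 fold changes were 0.10 ± 0.08 and -0.01 ± 0.06 (SE). Of the SLC43 facilitated carriers, Slc43a1 (LAT3) and Slc43a2 (LAT4), which pass large neutral amino acids, had values of -0.02 ± 0.06 and -0.09 ± 0.10. Slc43a3, described as a purine nucleobase carrier and so unlike its relatives, stood at 7.28, 7.20, 6.93 and 7.29 on the controls and 7.50, 7.54, 7.67 and 7.52 on the cuprizone arrays. It rose 1.30-fold (0.38 ± 0.08 SE, limma adjusted p = 0.0161), and without cuprizone replicate 3 it had an adjusted p of 0.0538 at a change of 0.34. Slc16a10 (TAT1), a carrier of aromatic amino acids, was at 6.43 ± 0.10 and 6.46 ± 0.18 (SD, n = 4 each).

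The 3 SLC6 carriers had lower means with cuprizone, none of them past the threshold. Slc6a9 (GlyT1), the glycine carrier of astrocytes, stood at 10.72, 10.55, 10.44 and 10.51 on the controls and at 9.67, 10.38, 10.27 and 9.58 on the cuprizone arrays. The cuprizone arrays thus formed a low pair, replicates 1 and 4, and a pair close below the controls, replicates 2 and 3. The mean change was -0.58 ± 0.16 (SE, limma adjusted p = 0.0562). Without cuprizone replicate 2 it was -0.72 (limma adjusted p = 0.0124), and without replicate 3 -0.68 (adjusted p = 0.0454). Without any other single array Slc6a9 was not called, with limma adjusted p up to 0.142. It was called in 6 of 21 alternatives. Slc6a6 (TauT), the taurine carrier, stood at 10.13, 10.03, 9.92 and 9.87, and with cuprizone at 9.83, 9.78, 9.62 and 9.72. Its change was -0.25 ± 0.07 (SE, limma adjusted p = 0.0616), without overlap. It was -0.27 with a limma adjusted p of 0.0467 when each array was centred on its median. Slc6a6 was called in 5 of 21 alternatives and in none that left out a single array, with limma adjusted p up to 0.159. Slc6a17 (NTT4), a carrier of synaptic vesicles, was at 10.84 ± 0.03 and 10.78 ± 0.06 (SD, n = 4 each).

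**Figure D4:**
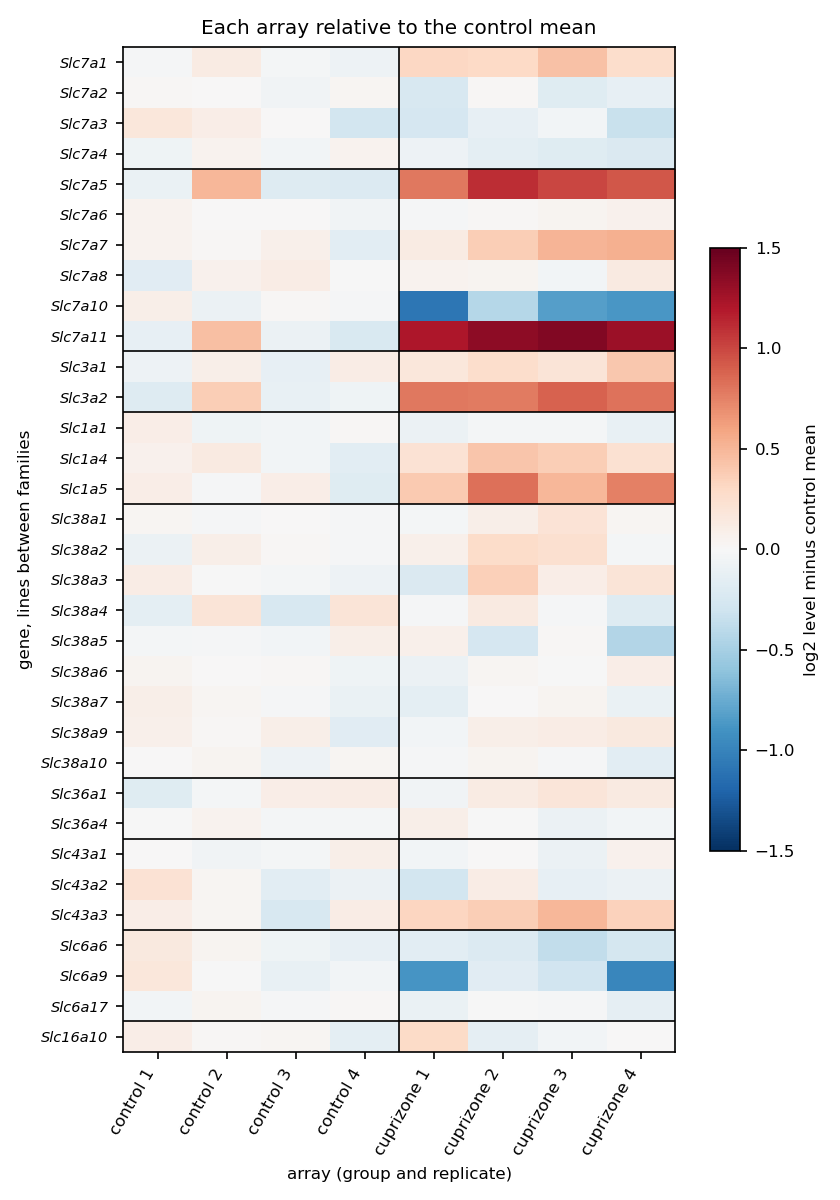
Log2 level of each carrier on each array minus its control mean (colour scale), in rows by gene with lines between families. Slc7a5, Slc7a11 and Slc3a2 are raised on control replicate 2 as well as on all cuprizone arrays, and Slc6a9 is lowest on cuprizone replicates 1 and 4.

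The arrays did not rank alike from gene to gene. Control replicate 2 was the highest control for 5 of the 8 risen members, Slc7a1, Slc7a5, Slc7a11, Slc3a2 and Slc1a4, and not for Slc7a7, Slc1a5 and Slc43a3. Cuprizone replicate 2, nearest to the controls on the first component, had the highest Slc7a5, Slc1a4 and Slc1a5 levels of the cuprizone arrays, and the highest level of Slc7a10, the member that fell. Cuprizone replicate 1 had the lowest level of Slc7a5, Slc7a7, Slc7a10, Slc7a11, Slc1a4, Slc1a5 and Slc43a3 among the cuprizone arrays.

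Genes around the carriers were read from lists of their pathways. Over all clusters tested, 8.22% were called in either direction. In the amino acid response, the ATF4 branch with its regulators and targets, 14 of 30 measured genes rose and 1 fell, with a median of 0.18. The 4 with the smallest p were Atf5 (1.22 ± 0.06), Cebpg (0.60 ± 0.05), Nupr1 (1.28 ± 0.12) and Sesn2 (0.98 ± 0.11, SE). Atf4 itself (0.35 ± 0.08) and Ddit3 (1.09 ± 0.13, SE) were also among the risen genes. The gene that fell was Ddit4 (-0.40 ± 0.08). Among those not called were Eif2ak4, which encodes GCN2 (0.006 ± 0.05), Asns (0.11 ± 0.07), Phgdh (-0.15 ± 0.11) and Psat1 (-0.18 ± 0.06, SE). Atf4, Ddit3, Ddit4 and these uncalled genes were chosen after their values were seen. The activity of GCN2 was not measured. Of the genes that sense amino acids for mTORC1, 2 of 32 (6.25%) rose and 0 fell, near the share over all clusters. The 2 were the leucine sensor Sesn2 and the arginine sensor Castor1 (0.35 ± 0.09). In the list of glutathione synthesis, use and regulation, 2 of 17 (11.8%) rose, the regulator Nfe2l2 (2.30-fold) and the haem oxygenase Hmox1 (3.64-fold). The ligase subunits that use cysteine, Gclc (0.05 ± 0.06) and Gclm (0.17 ± 0.06), were not called. Gclc and Gclm were chosen after their values were seen.

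In the arginine and polyamine list, 2 of 15 rose and 2 fell, together 26.7%, beside 8.22% of all clusters. The ornithine decarboxylase Odc1 (0.89 ± 0.10) and the spermidine acetyltransferase Sat1 (0.60 ± 0.07) rose, and the creatine synthesis enzymes Gamt (-1.78 ± 0.08) and Gatm (-0.88 ± 0.11) fell. Of 35 further amino acid carriers outside the 33, 1 rose and 2 fell, with a median of -0.04. Together these were 8.57%, near the share over all clusters. The astrocyte glutamate carrier Slc1a2 fell (-0.60 ± 0.07) while its relative Slc1a3 rose (0.32 ± 0.09), and the mitochondrial aspartate-glutamate carrier Slc25a13 fell (-0.56 ± 0.09, SE). Slc1a2 and Slc1a3 are also among the astrocyte markers, and Sesn2 stands in both of the lists that name it.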

How the data were processed

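The deposited table held log2 values of 28944 transcript clusters on 8 arrays. The submitters' processing notes, per the labels, name Affymetrix Expression Console, RMA and Transcriptome Analysis Console, without versions. RMA as published quantile normalizes arrays and so hides a shift shared by most genes. Array values can also compress large folds. No scanner file or detection call was used here, so signal over background is unknown for dim members. Clusters were named through the platform annotation: 23410 had at least 1 gene symbol, 21789 of them exactly 1. These 23410 were fitted with limma (version 3.58.1, R 4.3.3) as cuprizone minus control, two-sided, with default moderation and no covariate. P-values were adjusted by Benjamini-Hochberg over all 23410 clusters, and adjusted p under 0.05 was called. The fit was tested on simulated data. Differences between members used exact permutation. The members, lists and pairs were chosen with earlier results of these data known. Every member was named. Of each pathway list up to 4 called genes with the smallest p were named, besides genes chosen after their values were seen. Marker lists are given by counts. Symbols of all 33 members matched RefSeq by Entrez identifier, and promoter windows (250 bases before to 50 after a start) are RefSeq's for GRCm38.p6; only the upstream bases were printed. Alternatives were a block for the replicate number, omission of arrays, other priors, normalizations and filters, a covariate and a fold threshold of 1.2. Protein sequences were not analysed here.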

Additional observations from a re-analysis of the deposited data

Results flagged for a closer look

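Slc7a5 on control replicate 2 stood at 10.75, against 10.04 to 10.15 on the other 3 controls. The gap to the nearest control was 0.846 of the range of the group, above Dixon's 95% critical value for 4 samples. It was the only such value in 66 groups of 4 arrays, 33 members in each diet group, where chance would give about 1 in 20. Slc3a2 and Slc7a11 were also highest among the controls on this array, at 11.84 and 9.59, without passing the same limit.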

How the results depend on the processing

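No member that was called changed direction under any of the 21 alternatives. Slc7a11, Slc7a5, Slc3a2 and Slc7a10 kept their call in every one of them. The count of risen members, 8, was 5 with an ordinary F test and 3 against a 1.2-fold change. It was 5 over clusters above the median level, where 3 risen members below that level, Slc7a7, Slc1a5 and Slc43a3, were not tested. Above the 20th percentile it was 9, where Slc3a1 was added. Leaving out single arrays gave 5 to 8, and leaving out both arrays numbered 2, chosen after seeing the data, gave 5. The count of fallen members, 1, was 2 with the replicate number as a block and with an intensity trend and robust prior, 3 with each array centred on its median, 3 over clusters above the median level, 3 above the 20th percentile, 1 to 2 without single arrays and 2 without both arrays numbered 2; the further fallen members were Slc6a6 or Slc6a9. Same-numbered arrays were not paired, since their deviations over all clusters correlated between -0.186 and 0.210. The choroid plexus list mean was nonetheless higher on numbers 2 and 4 than on 1 and 3 in both groups. Whether the numbers stand for a shared step was not tested. The block for the replicate number gave 7 risen members. It dropped Slc7a7 and Slc43a3 and added Slc3a1 and Slc6a6. For the 11 pairs of members, sign flips within numbers cannot go below an exact p of 0.125. The moderated limma fit gave adjusted p from 2.87e-11 to 0.0174 for 7 of them. Its variance prior came from these 11 dependent pairs alone, so such small values are not to be relied on. Slc7a1, Slc7a7, Slc1a4, Slc1a5 and Slc43a3 lost their calls against a 1.2-fold change. With 4 arrays a group and no detection calls, changes of the dim members Slc7a7, Slc1a5, Slc3a1, Slc16a10, Slc38a4 and Slc43a1 are the least well measured.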
